A study of Mus musculus with 9 samples.

Results

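Tcf7, Lef1, Id3, Bach2 and Myb encode transcription factors associated with naive, memory and progenitor T cells, and their messenger RNA was compared in 3 groups of mouse T helper cells. The genes were chosen by symbol, as 5 of the 22017 genes in the table, and all 5 passed the filter on low values described below. Levels are in FPKM, which counts sequenced fragments relative to the length of the transcript and to the size of the library, so levels of different genes may be set side by side. In Th17-derived Th1 cells Tcf7, Lef1, Id3 and Bach2 stood 2.49-fold to 6.08-fold above Th1 cells, and none of the 4 differed past the test's threshold from Th17 cells. Myb had another order: it was 2.14-fold higher in Th17-derived Th1 than in Th17 cells.

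TCF-1 (encoded by Tcf7) and LEF-1 (Lef1) are closely related proteins that bind the same short DNA motif, recruit beta-catenin as a coactivator or TLE proteins as corepressors, and take part in T cell development in the thymus and in the upkeep of memory and progenitor T cells. Tcf7 gives long isoforms that can bind beta-catenin and short ones that cannot, and a value per gene pools them. ID3 (Id3) sequesters E proteins and so keeps them from DNA, BACH2 (Bach2) is a repressor that competes with AP-1 factors for their sites and restrains Prdm1, and MYB (Myb) is an activator of blood progenitor and stem-like T cells that works with the coactivators CBP and p300.

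Wild-type naive T cells from C57BL/6 spleens were grown in 3 ways, with 3 libraries of messenger RNA in each group. All received anti-CD3 and anti-CD28 for 3 days, IL-2 from day 5, a second round of anti-CD3, anti-CD28 and IL-2 on day 7, and lysis on day 10. The Th17-derived Th1 group (labelled Th17-1) began in the Th17 condition and was moved to the Th1 condition at the day 7 activation. The Th1 group (labelled Th1-1) had the Th1 condition throughout, which is IL-12 with an antibody against IL-4, and the Th17 group (labelled Th17-17) had the Th17 condition throughout, which is TGF-beta, IL-6 and IL-1beta with antibodies that block interferon-gamma, IL-12 as well as IL-4. Th1 cells are helper cells that make interferon-gamma under the factor T-bet, and Th17 cells make IL-17. The question the design puts to these genes is whether cells moved from the Th17 to the Th1 condition stand nearer Th17 or Th1 cells. The cells kept in the Th17 condition were also lysed on day 10, so the level before the move on day 7 is unknown. The 3 comparisons share libraries and are therefore not independent of each other, and the final medium cannot be told apart from the earlier history where both differ.

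A library summed to 382581 to 405985 FPKM, with 13374 to 14063 genes above 0. The files hold no read counts, so depth is unknown. All 7 T cell markers were above 1 FPKM, at a summed 933 to 1146 FPKM per library, while 6 of 8 B cell markers were below 1 FPKM in all libraries. The B cell markers summed to 1.47 to 2.71 FPKM in Th17-derived Th1, 1.09 to 2.40 in Th1 and 3.10 to 4.15 in Th17. Of other cells in which these factors are active, the 4 thymocyte markers summed to 1.65 to 2.34 FPKM in Th17-derived Th1, 0 to 0.133 in Th1 and 0.848 to 1.46 in Th17, nearly all of it Dntt, with Rag2 and Ptcra at 0. The 4 blood progenitor markers summed to 3.05 to 5.11, 2.62 to 4.71 and 1.65 to 2.33 FPKM in the same groups, nearly all of it Kit, with Flt3 at 0. The 3 markers of gamma-delta T cells, mostly Cd163l1, summed to 3.80 to 8.35 FPKM in Th17-derived Th1, 0.568 to 1.90 in Th1 and 5.00 to 6.01 in Th17. The thymocyte and gamma-delta markers were thus lowest in Th1, as Tcf7, Lef1, Id3 and Bach2 were, and their part in those results was not tested. Replicate 3 of each group stood apart in CD8 genes, the co-receptor of cytotoxic T cells. Cd8a was at 104 FPKM in replicate 3 of Th17-derived Th1, 117 in that of Th1 and 141 in that of Th17, against 15.3 to 54.9 FPKM in the other 6 libraries. Results are therefore also given without replicate 3 where it changes them. In bulk RNA fewer cells that express a gene and less RNA per cell cannot be told apart. Whether replicates are separate animals or cultures is not stated, so each p-value measures the spread between these libraries, which may be technical.

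The sequences around start sites as RefSeq annotates them are shown for Tcf7 and Lef1, which moved together, and for Myb, which did not move with them. RefSeq (GRCm38.p6) gave 9 windows for the 5 genes, each from 250 bases before to 50 after a start. The windows printed are those nearest to the gene's start in the GENCODE annotation: Tcf7 at chr11:52282965-52283264 (minus strand), Lef1 at chr3:131110073-131110372 (plus strand) and Myb at chr10:21160935-21161234 (minus strand). Each is written 5′ to 3′ on the gene's strand, with capitals on matches to a MYB motif (AACNG) or an E-box (CANNTG), which E proteins bind.
Tcf7: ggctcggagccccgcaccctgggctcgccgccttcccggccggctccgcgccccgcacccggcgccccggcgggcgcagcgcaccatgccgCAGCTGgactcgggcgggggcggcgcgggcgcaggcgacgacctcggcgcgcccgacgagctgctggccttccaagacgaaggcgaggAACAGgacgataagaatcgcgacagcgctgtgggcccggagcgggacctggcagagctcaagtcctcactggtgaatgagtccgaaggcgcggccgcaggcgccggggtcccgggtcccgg
Lef1: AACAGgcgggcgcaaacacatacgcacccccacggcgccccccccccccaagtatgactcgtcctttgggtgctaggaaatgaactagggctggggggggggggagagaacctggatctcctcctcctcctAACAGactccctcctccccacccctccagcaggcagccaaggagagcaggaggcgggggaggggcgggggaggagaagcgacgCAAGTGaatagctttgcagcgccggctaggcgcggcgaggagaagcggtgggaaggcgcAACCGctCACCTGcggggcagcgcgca
Myb: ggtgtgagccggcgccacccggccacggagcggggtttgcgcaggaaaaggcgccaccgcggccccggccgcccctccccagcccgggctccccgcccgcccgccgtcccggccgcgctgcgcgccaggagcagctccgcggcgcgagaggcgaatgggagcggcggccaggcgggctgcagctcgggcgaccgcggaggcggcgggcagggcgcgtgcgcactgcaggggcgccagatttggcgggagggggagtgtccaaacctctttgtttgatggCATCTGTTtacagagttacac

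Both strands of all 9 windows were searched for 4 motifs. The only window of Bach2 lies 178631 bases from its GENCODE start, and 1 of those of Lef1 lies 45823 bases from its own. The TCF/LEF motif (CTTTGAT or CTTTGAA) had no match in any of the 9 windows. Only 8.65% of the 32851 windows of the whole table held one, so a window without a match is the usual case. The AP-1 motif that BACH2 also binds (TGANTCA) likewise had no match, against 7.81% of all windows. The Tcf7 window printed had 1 MYB and 1 E-box match, that of Lef1 3 and 2, and that of Myb 1 and 1, which share 3 bases. These 2 motifs are short and common, at 80.3% and 72.3% of all windows. A match is only a run of letters, and the absence of one says nothing of other sites. The window of Tcf7 may not be that of the long transcripts: an ATG at its base 86, before the annotated start at base 251, opens a reading frame of 71 codons with no stop up to the window's end. In the Myb window such a frame opened at base 155 (48 codons), and the other 7 windows had none. Whether transcripts in these cells start at or before the annotated sites was not tested, so the motif matches are those of the printed letters and not of a known promoter.

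Tcf7 (chromosome 11, 52252371 to 52283014, minus strand, GRCm38) was the most abundant of the 5. It was at 253, 272 and 366 FPKM in the Th17-derived Th1 libraries, against 79.2, 26.2 and 50.6 FPKM in Th1 and 419, 431 and 264 FPKM in Th17 (replicates 1, 2 and 3, here and below). Every Th1 library lay below every library of the other groups, and the Th17-derived Th1 and Th17 groups overlapped through replicate 3 of each. By its mean, Tcf7 ranked 171st among all genes in Th17-derived Th1, 1361st in Th1 and 127th in Th17 cells.

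Differences were tested with limma on log2(FPKM + 1) over the 10538 genes that reached 1 FPKM in 3 or more libraries, with Benjamini-Hochberg adjustment, and a gene was called at an adjusted p below 0.05. On this scale the change of a low gene is understated. Tcf7 was 6.08-fold higher in Th17-derived Th1 than in Th1 (log2 difference 2.60, SE 0.36, adjusted p = 0.00350). Against Th17 its log2 difference was -0.31 (95% confidence interval -1.12 to 0.50, adjusted p = 0.577), an interval too wide to show that the levels were equal. In Th1 it was lower than in Th17, by -2.91 (adjusted p = 0.000457).

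**Figure D1:**
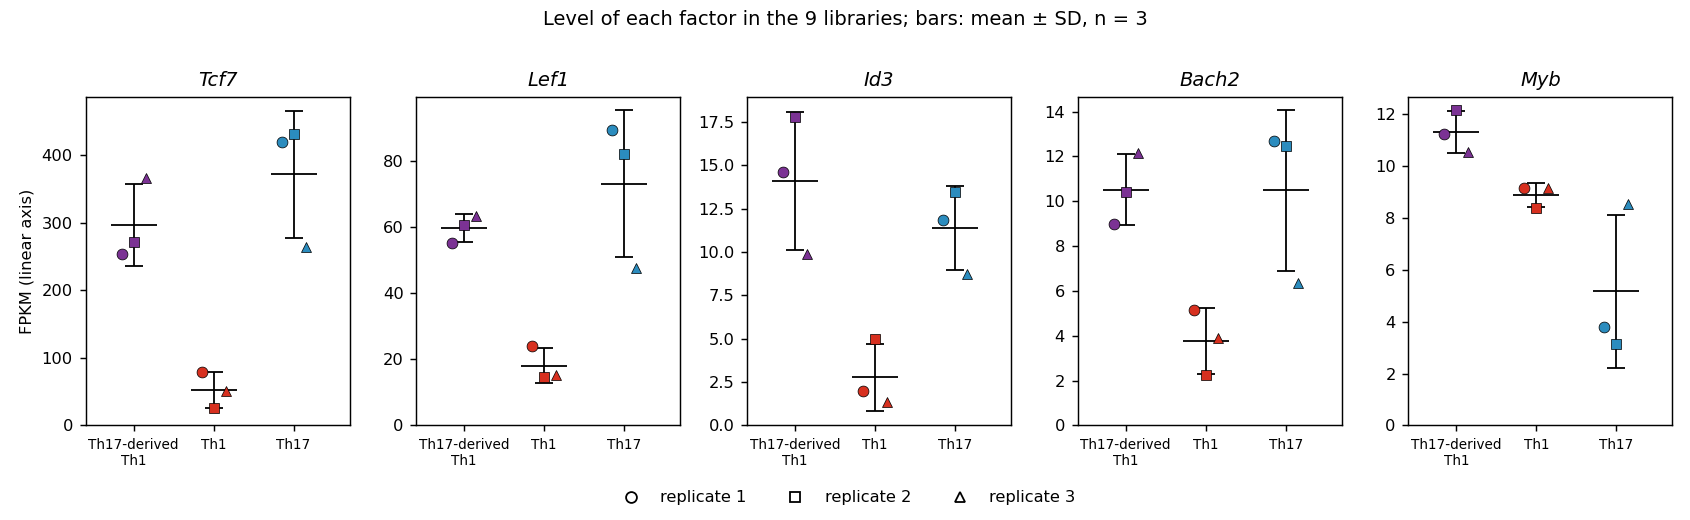
FPKM of each of the 5 genes (linear axes from 0, 1 panel a gene) in Th17-derived Th1, Th1 and Th17 cells. Symbols mark replicates and bars mean ± SD (n = 3). Tcf7, Lef1, Id3 and Bach2 lie low in all Th1 libraries, and replicate 3 of Th17 stands below replicates 1 and 2 for these 4 genes and above them for Myb.

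Lef1 (chromosome 3, 131110471 to 131224356, plus strand) followed the same order at a lower level. It was at 55.3, 60.6 and 63.5 FPKM in Th17-derived Th1, against 24.1, 14.8 and 15.4 FPKM in Th1 and 89.5, 82.1 and 47.8 FPKM in Th17 cells. The Th17-derived Th1 libraries were close together, with an SD of 4.17 FPKM, whereas replicate 3 of Th17 fell below all of them. Lef1 was 3.25-fold higher in Th17-derived Th1 than in Th1 (log2 difference 1.70, SE 0.25, adjusted p = 0.00434). Its log2 difference from Th17 was -0.24 (95% confidence interval -0.79 to 0.32, adjusted p = 0.528), and Th1 was lower than Th17 by -1.94 (adjusted p = 0.000520).

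For Tcf7 and Lef1 the comparison with Th17 depended on replicate 3. Without replicate 3 of all groups the log2 difference of Tcf7 from Th17 was -0.69 and that of Lef1 -0.56, neither of them called (adjusted p = 0.369 and 0.166). Without replicate 3 of Th17 alone they were -0.54 and -0.51. With limma's array weights, which give libraries that stand apart less weight, both were called lower in Th17-derived Th1 than in Th17 cells, Tcf7 at -0.59 (adjusted p = 0.0244) and Lef1 at -0.47 (adjusted p = 0.0362).

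Id3 (chromosome 4, 136143497 to 136145755, plus strand) was at 14.6, 17.8 and 9.87 FPKM in Th17-derived Th1, against 1.98, 4.98 and 1.37 FPKM in Th1 and 11.9, 13.5 and 8.73 FPKM in Th17 cells. Its mean was 1.24 times as high in Th17-derived Th1 as in Th17, and the libraries of these groups overlapped. Id3 was 4.23-fold higher in Th17-derived Th1 than in Th1 (log2 difference 2.08, SE 0.34, adjusted p = 0.00668). The log2 difference from Th17 was 0.27 (95% confidence interval -0.49 to 1.03, adjusted p = 0.599), and Th1 was lower than Th17 by -1.81 (adjusted p = 0.00318). Replicate 3 was the lowest Id3 library in each of the 3 groups.

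Bach2 (chromosome 4, 32238804 to 32586108, plus strand) was at 8.97, 10.4 and 12.1 FPKM in Th17-derived Th1, against 5.14, 2.23 and 3.90 FPKM in Th1 and 12.7, 12.4 and 6.36 FPKM in Th17 cells. The means of Th17-derived Th1 and Th17 were both 10.5 FPKM, with SDs of 1.59 and 3.58. Bach2 was 2.49-fold higher in Th17-derived Th1 than in Th1 (log2 difference 1.31, SE 0.29, adjusted p = 0.0224). Against Th17 the log2 difference was 0.05 (95% confidence interval -0.60 to 0.70, adjusted p = 0.922), and its sign turned to -0.35 without replicate 3 of all groups. Th1 was lower than Th17 by -1.27 (adjusted p = 0.00772). The call against Th1 was the weakest of the 4: it was lost without replicate 1 of Th17-derived Th1 (adjusted p = 0.0604), without its replicate 2 (0.0854), without replicate 3 of Th1 (0.0700) and without replicate 3 of all groups (0.0644), with log2 differences of 1.26 to 1.41.

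Myb (chromosome 10, 21124935 to 21160984, minus strand) was at 11.2, 12.2 and 10.6 FPKM in Th17-derived Th1, against 9.17, 8.37 and 9.16 FPKM in Th1 and 3.80, 3.15 and 8.55 FPKM in Th17 cells. It was highest in Th17-derived Th1, where every library was above every library of both other groups, and replicate 3 of Th17 was within the range of Th1. Myb was 2.14-fold higher in Th17-derived Th1 than in Th17 (log2 difference 1.10, SE 0.26, adjusted p = 0.0232) and 1.72-fold higher in Th1 than in Th17 (0.78, adjusted p = 0.0379). Against Th1 its log2 difference was 0.31 (95% confidence interval -0.28 to 0.91, adjusted p = 0.484), although the libraries did not overlap. Libraries that do not overlap, with Th17-derived Th1 the higher, were found for 16.3% of all genes tested in that comparison.

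Both calls of Myb rested on few libraries. The call of Th17-derived Th1 against Th17 was lost without any 1 of the 3 Th17-derived Th1 libraries (adjusted p = 0.0713, 0.0723 and 0.0511 without replicates 1, 2 and 3) or without replicate 1 or 2 of Th17 (0.0985 and 0.0887). The call of Th1 against Th17 was lost without replicate 1 or 2 of Th17-derived Th1 (0.0547 and 0.0542), without replicate 1 or 3 of Th1 (0.0902 and 0.0966) and without replicate 1 or 2 of Th17 (0.128 and 0.129). Without replicate 3 of all groups both differences of Myb were larger, at 1.51 (adjusted p = 0.00284) and 1.13 (adjusted p = 0.00290).

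**Figure D2:**
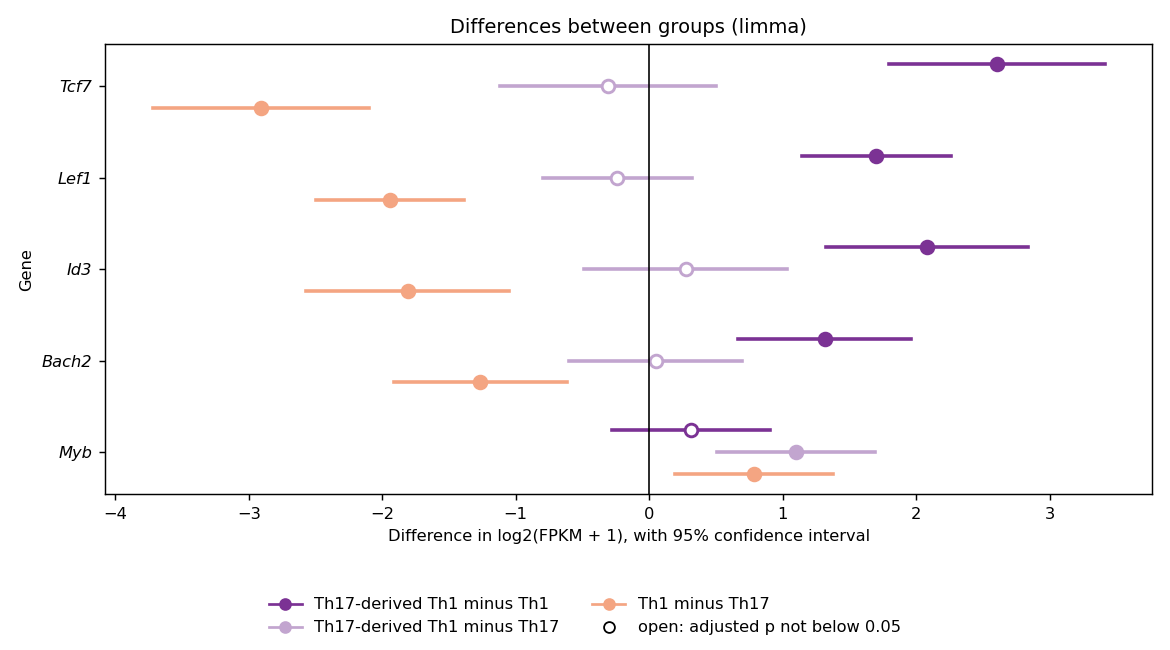
Differences in log2(FPKM + 1) between groups for the 5 genes, with 95% confidence intervals from limma. Filled points are called at an adjusted p below 0.05 and open points are not: Tcf7, Lef1, Id3 and Bach2 are called against Th1 but not against Th17, and Myb the other way round.

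Of the 5 genes, 4 were higher and 0 lower in Th17-derived Th1 than in Th1, where 10.5% of all genes tested were called, 5.67% of them higher and 4.81% lower as shares of all tested. The median log2 difference was 1.70 for the 5 genes and 0.05 for all genes. Against Th17, 1 was higher and 0 were lower in Th17-derived Th1, where 15.9% of all genes were called (6.43% higher and 9.49% lower), with medians of 0.05 and -0.12. In Th1 against Th17, 1 was higher and 4 were lower, where 42.9% of all genes were called (14.0% higher and 28.9% lower), with medians of -1.81 and -0.17. Groups that did not overlap were found for the 4 called genes and Myb against Th1 (higher for 16.3% and lower for 12.9% of all genes), for Myb against Th17 (13.2% higher and 30.0% lower), and for the 4 lower genes in Th1 against Th17 (16.4% higher and 36.4% lower). A call in this last comparison is thus common, and the size of the differences says more than their number. Where limma called 0 of the 5 in a direction, 0 also had an unadjusted p below 0.05.

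For each gene the Th17-derived Th1 level was expressed as a percentage of the way from the Th17 mean (0%) to the Th1 mean (100%) on the log2(FPKM + 1) scale. Tcf7 stood at 10.5% and Lef1 at 12.3%. Id3 stood at -15.1% and Bach2 at -3.80%, on the far side of Th17. Myb stood at 140%, beyond Th1. Among the 998 genes called at 2-fold or more between Th1 and Th17, the median position was 56.8% and the quartiles 36.5% and 80.4%. Tcf7, Lef1, Id3 and Bach2 thus lay below the lower quartile. Myb lay above the upper one, but at 1.72-fold between Th1 and Th17 it is not itself in this set. When each library was left out in turn, Tcf7 ranged from 6.53% to 17.1%, Lef1 from 3.87% to 23.2%, Id3 from -27.2% to -5.30%, Bach2 from -18.1% to 15.8% and Myb from 127% to 158%.

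**Figure D3:**
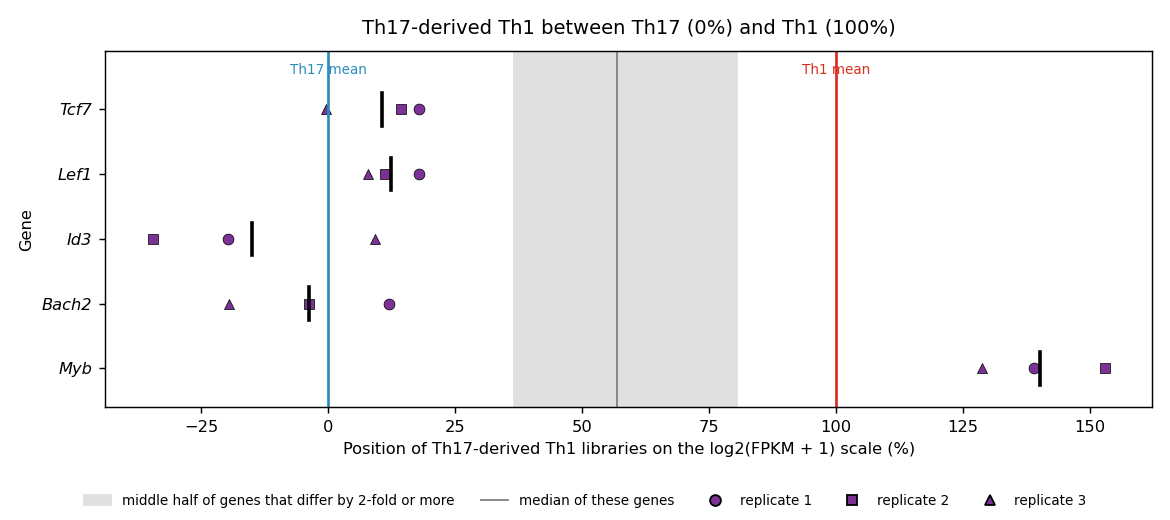
Position of each Th17-derived Th1 library (symbols) and of their mean (bar) between the Th17 mean at 0% and the Th1 mean at 100%, on the log2(FPKM + 1) scale. The grey band spans the quartiles, 36.5% to 80.4%, of the 998 genes called at 2-fold or more between Th1 and Th17: 4 genes lie left of it and Myb, which differs by less and is not in that set, right of it.

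Ratios of 2 genes within a library do not depend on how that library was scaled, apart from the added 1 FPKM. TCF-1 was set against T-bet (encoded by Tbx21), the factor of Th1 cells. The log2 ratio of Tcf7 to Tbx21 was 3.20, 3.44 and 2.90 in Th17-derived Th1, against -0.23, -1.33 and -0.93 in Th1 and 5.74, 5.89 and 4.31 in Th17 cells. Every Th1 library thus had less Tcf7 than Tbx21, every other library had more, and the 3 groups did not overlap. The means of both genes in Th17-derived Th1 lay between those of the other groups. Tbx21, at 33.0 ± 13.2 FPKM in Th17-derived Th1, 85.9 ± 16.1 in Th1 and 8.51 ± 3.33 in Th17 cells (SD, n = 3 each), was called against both, and Tcf7 against Th1 only.

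Against Prdm1, which encodes the effector factor BLIMP-1, the log2 ratio of Tcf7 averaged 5.88 ± 0.118 in Th17-derived Th1, 2.48 ± 0.616 in Th1 and 7.35 ± 0.694 in Th17 cells (SD, n = 3 each). For Bach2 and Prdm1 it was 1.07, 1.36 and 1.15 in Th17-derived Th1, against -0.60, -1.20 and -0.94 in Th1 and 2.87, 2.68 and 1.38 in Th17 cells. Bach2 exceeded Prdm1 in every library but those of Th1, and replicate 3 of Th17 was just above the highest Th17-derived Th1 library. Prdm1 was near the added 1 FPKM in Th17 cells, so the size of its ratios there depends on that value. With 0.1 FPKM added, the difference in Th17-derived Th1 minus Th17 went from -1.11 to -1.58 for Bach2 to Prdm1. For Tcf7 to Prdm1 it went from -1.47 to -1.95. Id2 encodes another ID protein and was more abundant than Id3 throughout. The log2 ratio of Id3 to Id2 averaged -3.99 ± 0.700 in Th17-derived Th1, -6.71 ± 0.845 in Th1 and -3.06 ± 0.895 in Th17 cells.

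Between Tcf7 and Lef1 themselves the ratio also differed. It was 2.17, 2.15 and 2.51 in Th17-derived Th1, against 1.68, 0.79 and 1.65 in Th1 and 2.21, 2.38 and 2.44 in Th17 cells, so that Tcf7 was lower relative to Lef1 in all Th1 libraries. In exact two-sided permutation tests of the 5 ratios in 3 comparisons, 13 of 15 reached p = 0.1, the smallest that 3 libraries against 3 can give (0.115 after adjustment over the 15). The other 2, both in Th17-derived Th1 against Th17, were Id3 to Id2 (exact permutation p = 0.3) and Tcf7 to Lef1 (exact permutation p = 0.7). No p below 0.05 was possible here, so the separation of the libraries is a description.

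**Figure D4:**
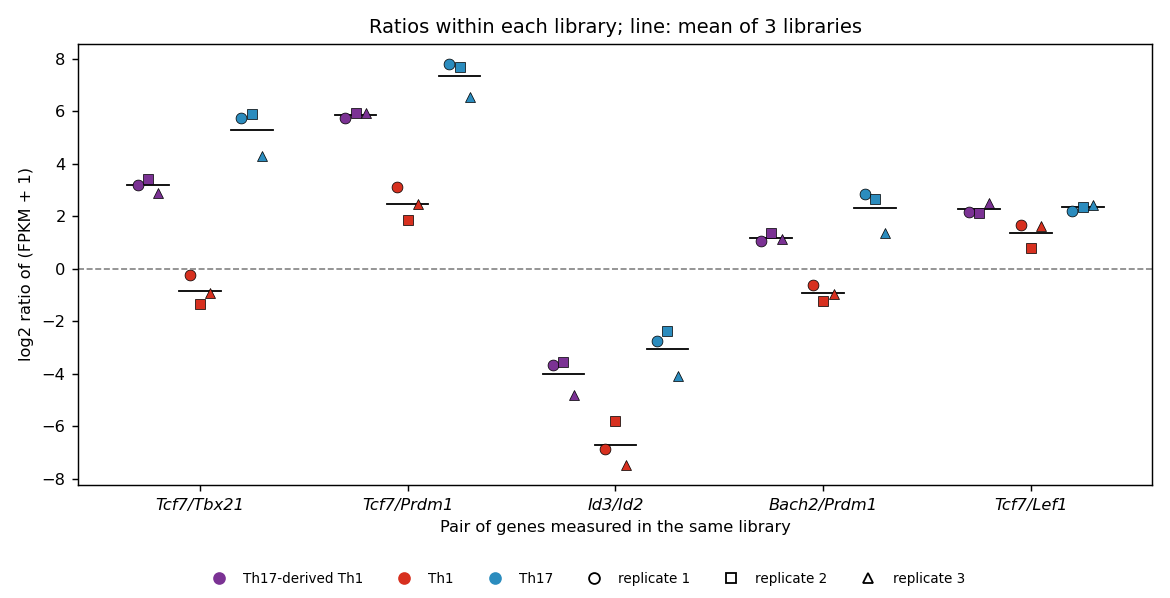
Log2 ratios of 2 genes measured in the same library, after adding 1 FPKM to each (vertical axis), for Th17-derived Th1, Th1 and Th17 cells. Symbols mark replicates and lines the mean of 3 libraries: the ratio of Tcf7 to Tbx21 is below 0 in all Th1 libraries and at 2.90 or above in all others.

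Among the other TCF/LEF genes, Tcf7l1 and Tcf7l2 were too low to test, with highest values of 0.820 and 0.0871 FPKM. Of 27 listed relatives and beta-catenin partners, 22 were tested. In Th17-derived Th1 against Th1, 3 were higher and 1 was lower, with a median log2 difference of 0.11. Of all genes tested, 5.67% were called higher and 4.81% lower there (median 0.05). Axin2, a widely used transcriptional target of beta-catenin and TCF/LEF that is itself an inhibitor of the pathway, was at 6.92, 7.31 and 7.13 FPKM in Th17-derived Th1, against 4.01, 2.56 and 1.79 FPKM in Th1 and 9.28, 8.80 and 5.74 FPKM in Th17 cells. It was higher than in Th1 by 1.14 on the log2 scale (adjusted p = 0.0143), a call lost without replicate 1 or 2 of Th17-derived Th1 or replicate 3 of Th1 (highest adjusted p 0.0633). Znrf3, a ubiquitin ligase that removes Wnt receptors and is another feedback target, was at 6.06 ± 0.835 FPKM in Th17-derived Th1, 2.93 ± 0.708 in Th1 and 7.14 ± 0.530 in Th17 cells (adjusted p = 0.00891 against Th1).

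In Th17-derived Th1 against Th17, 1 of the 22 was higher and 5 were lower, with a median of -0.17. Of all genes tested, 6.43% were called higher and 9.49% lower there (median -0.12). Ctnnb1, which encodes beta-catenin, was lower, at 83.8 ± 3.03 FPKM in Th17-derived Th1 against 117 ± 3.81 FPKM in Th17 (log2 difference -0.48, adjusted p = 0.00297). Bcl9l, which tethers beta-catenin to its coactivators, was at 9.46, 12.7 and 13.3 FPKM in Th17-derived Th1, against 8.27, 7.55 and 8.69 FPKM in Th1 and 38.1, 44.1 and 25.4 FPKM in Th17 cells. It was lower in Th17-derived Th1 than in Th17 by -1.50 (adjusted p = 0.00153). Tle4, a corepressor, was also lower (-0.70, adjusted p = 0.00979), while Tle3, of the same family, was higher (0.48, adjusted p = 0.00807, and 0.0640 without replicate 3 of all groups). The means of Ctnnb1, Bcl9l and Tle4 in Th17-derived Th1 were thus nearer to Th1, and those of Tcf7 and Lef1 nearer to Th17. In Th1 against Th17, 3 were higher and 13 lower (median -0.36), including Axin2 (-1.26) and Znrf3 (-1.06) among the lower. The shares of all genes there were 14.0% higher and 28.9% lower (median -0.17).

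The E proteins, which ID3 sequesters, were not called. Of all genes, 10.5% were called in Th17-derived Th1 against Th1, 15.9% in it against Th17 and 42.9% in Th1 against Th17. Tcf3, which encodes E2A, averaged 52.0 ± 3.56 FPKM in Th17-derived Th1, 54.8 ± 4.67 in Th1 and 54.1 ± 3.20 in Th17 cells. Tcf12, which encodes HEB, averaged 19.5 ± 1.18, 21.8 ± 2.19 and 21.4 ± 1.63 FPKM in the same groups, and neither gene was called in any comparison under any of the alternatives tried. Of the 4 tested genes of this list, 1 was called: Id2 was higher in Th17-derived Th1 than in Th17, at 195, 217 and 302 FPKM against 84.9, 74.3 and 163 FPKM (log2 difference 1.20, adjusted p = 0.0204), and higher in Th1 than in Th17 (1.83, adjusted p = 0.00123). The first of these calls was lost without replicate 2 or 3 of Th17-derived Th1 or replicate 1 or 2 of Th17 (highest adjusted p 0.0901). Id2 was at 346, 330 and 417 FPKM in Th1, above every Th17-derived Th1 library. This difference was not called (-0.63 in Th17-derived Th1 minus Th1, adjusted p = 0.186), but it was without replicate 3 of all groups, with the replicate block and with array weights.

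Of 15 tested BACH relatives, small MAF partners and AP-1 factors, 6 were higher and 1 was lower in Th17-derived Th1 than in Th17. The median log2 difference was 0.55. Against Th1 limma called 0 higher and 1 lower (median -0.12), and 1 and 3 had an unadjusted p below 0.05. The shares of all genes were 6.43% higher and 9.49% lower against Th17, and 5.67% and 4.81% against Th1. Batf3, Jun, Junb and Batf, which encode AP-1 factors, were higher than in Th17 by 2.90, 2.16, 1.13 and 1.09 on the log2 scale (highest adjusted p 0.00617). Jun, for one, averaged 86.6 ± 8.14 FPKM in Th17-derived Th1, 49.5 ± 19.1 in Th1 and 18.7 ± 2.12 in Th17 cells. In the comparison with Th17, Bach2 was thus not called while 6 of these genes were higher. Hmox1, which encodes heme oxygenase and is repressed by BACH1 in other cells, averaged 8.42 ± 1.59 FPKM in Th17-derived Th1, 24.5 ± 12.3 in Th1 and 3.10 ± 0.323 in Th17 cells. Bach1 itself was not called in any comparison as fitted, with single libraries at 5.91 to 7.54 FPKM in Th17-derived Th1, 8.07 to 10.1 in Th1 and 7.17 to 8.65 in Th17. Its Th17-derived Th1 libraries were all below those of Th1 (log2 difference -0.41, adjusted p = 0.0676), and it was called lower there with array weights, without replicate 3 of Th17-derived Th1 and without replicate 2 of Th1. Array weights also called it against Th17 (-0.25 as fitted, adjusted p = 0.184).

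The other MYB family genes were not called where Myb was. Mybl1 averaged 6.18 ± 0.716 FPKM in Th17-derived Th1, 5.56 ± 0.776 in Th1 and 5.50 ± 0.481 in Th17 cells, and Mybl2, a cell cycle gene, averaged 18.2 ± 3.35, 18.7 ± 4.21 and 19.9 ± 4.32 FPKM. Neither was called in any comparison. Of the 10 tested genes of the MYB list, 0 were called in Th17-derived Th1 against Th17 (median -0.09, and 0.02 with median-ratio scaling), and 0 of them had an unadjusted limma p below 0.05, where 15.9% of all genes were called. Ep300, which encodes the MYB coactivator p300, was higher in Th17-derived Th1 than in Th1, at 28.2, 28.5 and 31.9 FPKM against 20.6, 17.4 and 21.8 FPKM (log2 difference 0.55, adjusted p = 0.0115, and 0.0517 without replicate 3 of all groups).

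Other factors of naive and stem-like T cells were mixed. Of 12 tested, limma called 2 higher and 0 lower in Th17-derived Th1 than in Th1 (median 0.19), with 5 and 1 at an unadjusted p below 0.05. Against Th17 it called 0 higher and 4 lower (median -0.14), with 1 and 4 at an unadjusted p below 0.05. Over all genes, 5.67% were higher and 4.81% lower than in Th1, and 6.43% higher and 9.49% lower than in Th17. Klf2, a factor of quiescence and of exit from lymphoid tissue, was between the 2 other groups, at 37.6, 51.1 and 39.4 FPKM in Th17-derived Th1, against 9.97, 10.5 and 11.8 FPKM in Th1 and 142, 159 and 76.5 FPKM in Th17. Its calls stood at 1.88 against Th1 (adjusted p = 0.00295) and -1.48 against Th17 (adjusted p = 0.00457), so it was called against both. Satb1, a chromatin organizer of T cells, was at 147 ± 13.4 FPKM in Th17-derived Th1, 69.7 ± 22.9 in Th1 and 90.9 ± 16.1 in Th17 cells. It was called against Th1 (1.12, adjusted p = 0.0183), but not without replicate 1 or 2 of Th17-derived Th1, replicate 3 of Th1 or replicate 3 of all groups (highest adjusted p 0.0959). Eomes, which TCF-1 is known to regulate in CD8 T cells, was lower than in Th17, at 4.38, 9.40 and 6.80 FPKM against 18.8, 23.4 and 44.2 FPKM (log2 difference -1.88, adjusted p = 0.0116, and 0.0820 without replicate 3 of all groups). Tox, a factor of exhausted T cells, was at 0.863 ± 0.270 FPKM in Th17-derived Th1, 1.40 ± 1.19 in Th1 and 2.77 ± 0.285 in Th17 cells (SD, n = 3 each). It was lower in Th17-derived Th1 than in Th17 (-1.02, adjusted p = 0.0427), a call lost in 12 of the 21 other fits, among them 7 of 9 that leave out 1 library and that without replicate 3 of all groups (highest adjusted p 0.153), and it was not called against Th1 (adjusted p = 0.591). Bcl6, a factor of follicular helper T cells, was at 2.89 ± 2.38 FPKM in Th17-derived Th1, 5.45 ± 3.43 in Th1 and 3.60 ± 0.957 in Th17 cells, and was called in no comparison except with array weights.

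Of the 16 tested effector factors, 10 were higher and 1 was lower in Th17-derived Th1 than in Th17 (median log2 difference 0.92). Against Th1, 1 was higher and 4 were lower (median -0.24). The shares of all genes were 6.43% higher and 9.49% lower against Th17, and 5.67% and 4.81% against Th1. Tbx21 was called in both directions, at 1.82 against Th17 (adjusted p = 0.00436) and -1.40 against Th1 (adjusted p = 0.0205). Prdm1 was at 3.74, 3.46 and 4.91 FPKM in Th17-derived Th1, against 8.32, 6.43 and 8.40 FPKM in Th1 and 0.875, 1.10 and 1.83 FPKM in Th17 cells, with calls of 1.16 against Th17 (adjusted p = 0.00346) and -0.79 against Th1 (adjusted p = 0.0272). Without replicate 1 or 2 of Th17-derived Th1 or replicate 1 or 3 of Th1, both calls against Th1 were lost (highest adjusted p 0.0898 for Tbx21 and 0.116 for Prdm1, which also lost it with no filter and with an added 0.1 FPKM). Zeb2, an effector factor that acts with T-bet, was higher than in Th17 (1.37, adjusted p = 0.000905). Maf was higher in Th17-derived Th1 than in Th1, at 49.9, 45.7 and 27.6 FPKM against 12.9, 7.60 and 7.14 FPKM (2.04, adjusted p = 0.00237).

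Surface and secreted markers of progenitor cells showed 7 of 17 tested genes higher and 1 lower in Th17-derived Th1 than in Th1 (median 0.46). Against Th17, 7 were higher and 3 lower (median 0.54). The 7 were Cd28, Icos, Izumo1r, Tnfsf8, Dapl1, Traf1 and Emb. Of these, Cd28, Icos, Dapl1, Traf1 and Emb were also called higher in Th1 than in Th17. S1pr1 and Actn1 were called higher in Th17-derived Th1 than in Th1 and lower than in Th17. Some of these calls were lost in the alternatives, among them Icos in Th1 against Th17 and S1pr1 and Actn1 against Th17. Over all genes, 5.67% were higher and 4.81% lower than in Th1, and 6.43% higher and 9.49% lower than in Th17. Slamf6, which encodes the receptor Ly108 that marks TCF-1+ progenitor exhausted CD8 T cells, was at 16.9, 14.4 and 22.7 FPKM in Th17-derived Th1, against 9.48, 3.22 and 6.67 FPKM in Th1 and 12.0, 11.2 and 7.36 FPKM in Th17. It was called against Th1 (1.42, adjusted p = 0.0253) but not without replicate 1, 2 or 3 of Th17-derived Th1, replicate 3 of Th1 or replicate 3 of all groups, with no filter, or with 2 groups only (highest adjusted p 0.120). Against Th17, whose libraries it did not overlap, it was not called (0.77, adjusted p = 0.132), except with 2 groups only and without replicate 2 of Th1. Ccr7, the receptor for entry to lymph nodes, was called against Th1 and not against Th17, as Tcf7 was, at 149, 145 and 127 FPKM in Th17-derived Th1, against 36.1, 33.9 and 20.6 FPKM in Th1 and 160, 161 and 99.6 FPKM in Th17 (2.21 against Th1, adjusted p = 0.00124, and 0.03 against Th17, adjusted p = 0.947). Xcl1, a chemokine of progenitor exhausted cells, went the other way, at 8.26 ± 2.63 FPKM in Th17-derived Th1, 36.0 ± 15.1 in Th1 and 57.2 ± 0.707 in Th17 cells, lower than in Th17 by -2.69 (adjusted p = 0.000741). Il7r, the IL-7 receptor, was not called in any comparison and spread widely, at 83.8, 86.5 and 173 FPKM in Th17-derived Th1.

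Of 15 tested markers of terminal effector cells, 2 were higher and 7 lower in Th17-derived Th1 than in Th1 (median -0.59). Against Th17, 5 were higher and 4 lower (median 1.03). The shares of all genes were 5.67% higher and 4.81% lower against Th1, and 6.43% and 9.49% against Th17. Those lower than in Th17 were Cx3cr1, Cd101, Cd160 and Cd244a. Cd244a kept this call in every alternative (log2 difference -3.09 to -1.60, highest adjusted p 0.00222), while Cd101 and Cd160 lost it in some. Those higher than in Th1 were Cd101, in every alternative (1.08 to 2.19, highest adjusted p 0.0243), and Ctla4, which lost the call in some. Havcr2, which encodes the inhibitory receptor TIM-3 of terminally exhausted cells, was at 10.2, 11.6 and 22.9 FPKM in Th17-derived Th1, against 42.3, 38.4 and 55.2 FPKM in Th1 and 2.98, 2.51 and 5.53 FPKM in Th17. It was lower than in Th1 by -1.61 (adjusted p = 0.0146, lost without replicate 1 or 2 of Th17-derived Th1 or replicate 3 of Th1, highest 0.0707) and higher than in Th17 by 1.74 (adjusted p = 0.00694). Prf1, which encodes perforin, was higher than in Th17 by 3.21 (adjusted p = 0.00253) at 105, 117 and 249 FPKM against 9.35, 10.4 and 32.3 FPKM, and replicate 3, the library with the most Cd8a in each group, was the highest. The part of CD8 cells in these values was not tested. With the mean level of Cd8a and Cd8b1 as a covariate, all 10 calls of Tcf7, Lef1, Id3, Bach2 and Myb stayed below 0.05. The log2 difference of Id3 from Th17 became 0.10. Of the other named genes, Eomes, Cd27, Icos and Atxn7l1 lost their calls in Th1 against Th17. In Th17-derived Th1, Ctla4 and Icos lost theirs against Th1, and Lrp6, Runx3 and Gbp6 theirs against Th17. The summed Cd8a and Cd8b1 were highest in Th17 at each replicate number. A fit with this covariate therefore cannot show what part CD8 cells had.

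In Th1 against Th17, the same lists had 8 higher and 1 lower among the BACH and AP-1 genes (median 0.61), 9 higher and 1 lower among the effector factors (1.20), and 10 higher and 3 lower among the markers of terminal effector cells (1.52). The factors of naive and stem-like cells had 1 higher and 4 lower (-0.44), and the progenitor markers 6 higher and 4 lower (-0.23). Of all genes tested, 14.0% were called higher and 28.9% lower in this comparison (median -0.17). The lower counts of the naive, progenitor and MYB lists were near that share. Of the MYB list limma called 0 higher and 3 lower (-0.23), with 0 and 3 at an unadjusted p below 0.05, and with median-ratio scaling it called 0 of them lower. The lists hold genes that are known to differ between Th1 and Th17 cells, Tbx21 for one, and their members were named with results of these data known.

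Genes most like each of the 5 were named by the Pearson correlation of log2(FPKM + 1) over the 9 libraries, among 7908 tested genes averaging at least 5 FPKM. The libraries fall in 3 groups, so a high correlation mostly restates the group means, and it is given as a description. Lef1 and Tcf7 correlated at 0.980, Tcf7 and Bach2 at 0.966, and Lef1 and Bach2 at 0.961. Id3 correlated at 0.740 to 0.850 with these 3, and Myb at -0.40 to -0.17 with the other 4. Most like Tcf7 were Dnah8 (0.992), Patz1, Cbx7, Kat2b and Arrb1, and most like Lef1 were Crlf3 (0.990), Kat2b, Cbx7, Aff3 and Als2cl. Cbx7, a Polycomb protein, was at 22.1 ± 2.45 FPKM in Th17-derived Th1, 9.49 ± 3.05 in Th1 and 28.1 ± 5.68 in Th17 cells, and Kat2b, a histone acetyltransferase, at 17.3 ± 0.441, 10.1 ± 1.30 and 17.3 ± 1.98 FPKM.

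Among the genes most like Id3 were Igfbp4 (0.990), Tmem50b, Pdlim1 and Rab18. Igfbp4, which encodes a secreted protein that binds insulin-like growth factors, was at 678, 603 and 381 FPKM in Th17-derived Th1, against 58.0, 111 and 32.1 FPKM in Th1 and 479, 477 and 282 FPKM in Th17 cells. As for Id3, replicate 3 was the lowest in each group. Most like Bach2 were Atxn7l1 (0.989), Cep97, Serinc5, Scml4 and Arhgap15. Most like Myb were Gbp6 (0.987), Psme1, Oas3, Igtp and Clic4, of which Gbp6, Psme1, Oas3 and Igtp are known as interferon-induced genes. Gbp6 was at 142, 162 and 122 FPKM in Th17-derived Th1, against 121, 101 and 108 FPKM in Th1 and 54.1, 47.9 and 123 FPKM in Th17, with replicate 3 of Th17 high as it was for Myb.

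Replicate 3 of Th17 differed from replicates 1 and 2 of its group in all 5 genes. On the log2(FPKM + 1) scale it was lower than their mean by -0.69 for Tcf7, -0.83 for Lef1, -0.49 for Id3 and -0.88 for Bach2, and higher by 1.10 for Myb. Replicates 1 and 2 of Th17 differed from each other by 0.02 (Bach2) to 0.21 (Myb) only. For each gene replicate 3 of Th17 thus stood on the side of Th1, and it also held 52.9 FPKM of Cd4 against 97.5 and 88.1 FPKM in replicates 1 and 2. Replicate 3 of Th17-derived Th1, with Cd8a at 104 FPKM, differed from the mean of its replicates 1 and 2 in both directions. For Id3 it was lower (-0.66), as in Th17. The other genes went the other way than in Th17: Tcf7 (0.48), Lef1 (0.13), Bach2 (0.30) and Myb (-0.13). The part of CD8 cells in these differences between libraries was not tested.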

How the data were processed

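The table deposited by the authors holds FPKM values of 22017 genes in 9 columns. HISAT2, DESeq2 and the mm10 build were used, per the submitters' processing notes. Not given in the sources used here are their roles, the tool versions, the annotation, the strand setting and how reads with several matches were counted. Annotated antisense genes share exon bases with Lef1, Bach2 and Myb in GENCODE vM21, so without strand their reads cannot be told apart. FPKM holds no counts, and low values shared no step between libraries (within 0.01 log2 units, the most frequent ratio took in only 0.777% to 1.65% of them), so depth is unknown. Sample titles gave the groups and the replicate numbers. Within a group, correlations across genes, which are not replicates, were 0.964 to 0.993, and no columns were identical.

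log2(FPKM + 1) of the 10538 genes that reached 1 FPKM in 3 or more libraries was fitted with limma 3.58.1 (R 4.3.3, mean-variance trend). All 9 libraries entered, which leaves 6 residual degrees of freedom. The fit was also run on simulated data with independent noise and no deviating library, which does not bear on the part of replicate 3 here. Two-sided p-values were adjusted over all genes tested by the Benjamini-Hochberg method. Folds are on the log2(FPKM + 1) scale. Tables and figures were made with Python 3.11.15, pandas 2.3.3, scipy 1.17.1 and matplotlib 3.10.9. The members, gene lists and tests were chosen with earlier results of these data known. Named genes were the 5 members, 19 counterparts, up to 4 called genes per list, direction and comparison whose groups did not overlap and whose higher group averaged at least 5 FPKM, and the 5 genes most like each member, of which 1 is not reported here. Positions are from GENCODE (GRCm38) and sequences from RefSeq (GRCm38.p6). Deviations of same-numbered libraries correlated at -0.178 to 0.659 over 9 pairs, and those of differently numbered ones at -0.646 to 0.459. The labels state no pairing, and libraries were not taken as pairs in the main fit. The alternatives tried were the replicate number as a block, added values of 0.1 and 5 FPKM, no filter, a filter of 5 FPKM, 3 scalings, the 2 groups compared alone, limma's array weights and robust moderation, replicates 1 and 2 only, the CD8 genes as a covariate and the omission of each library.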

Additional observations from a re-analysis of the deposited data

How the results depend on the processing

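Of the 10 calls of the 5 genes, 7 held under every alternative run, and Bach2 against Th1 and both calls of Myb did not. For Bach2 in Th17-derived Th1 minus Th1 the log2 difference was 1.26 with replicates 1 and 2 only and 1.06 to 1.52 with each library omitted. For Myb in Th1 minus Th17 it was 0.78 both with no filter and with 2 groups only, where the call was lost, and 0.55 to 1.15 with each library omitted, and in Th17-derived Th1 minus Th17 it was 0.86 to 1.46. Array weights called Tcf7 (-0.59) and Lef1 (-0.47) against Th17, and turned Bach2 against Th17 to -0.23. That sign also turned with replicates 1 and 2 only (-0.35), and ranged from -0.25 to 0.20 with each library omitted. The cause was not tested. Of 145 calls of other named genes, 84 held under every alternative and none changed sign.

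The replicate block changed no call of the 5 genes (Bach2 in Th17-derived Th1 minus Th1 kept an adjusted p of 0.0333) and gave 1255, 1681 and 4452 calls, against 1104, 1678 and 4526 as reported, for Th17-derived Th1 minus Th1, Th17-derived Th1 minus Th17 and Th1 minus Th17. For Id3 in Th17-derived Th1 minus Th1 the block lowered the SE from 0.337 to 0.173 (limma adjusted p from 0.00668 to 0.0012). The closest library of another group had the same number in 9 of 18 cases. In that order of comparisons, array weights gave 5430, 4603 and 7116 calls, and the omission of each library gave 315 to 1861, 681 to 2342 and 3013 to 5400 calls. For the first comparison, 2 groups only gave 692 and replicates 1 and 2 only gave 596, and for the second replicates 1 and 2 only gave 1036. Median-ratio scaling gave a median log2 difference of all genes of -0.01 in Th17-derived Th1 minus Th17, against -0.12 as reported, and 63.1% of calls higher (quantile normalization 55.4%), against 40.4%. In Th1 minus Th17 that share was 32.7% as reported, 53.9% and 45.7%. With 0.1 FPKM added, the log2 Bach2 to Prdm1 ratio differed by 2.45 in Th17-derived Th1 minus Th1, against 2.11 as reported. In Th1 minus Th17 it differed by -4.03, against -3.22 as reported. With each library omitted, the position was 3.87% to 23.2% for Lef1, -18.1% to 15.8% for Bach2 and 127% to 158% for Myb. Depth is unknown, so no counting error is given.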

Other observations

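Dntt, which encodes the terminal transferase of immature lymphocytes, was at 1.65, 1.80 and 2.34 FPKM in Th17-derived Th1, against 0.133, 0.122 and 0 FPKM in Th1 and 1.46, 1.13 and 0.848 FPKM in Th17 cells. It was the highest of the 4 thymocyte markers, of which Rag2 and Ptcra were listed at 0 in all 9 libraries, and its groups did not overlap with each other. Kit, the receptor of stem cell factor, was at 4.28, 3.03 and 5.06 FPKM in Th17-derived Th1, against 4.03, 4.55 and 2.57 FPKM in Th1 and 1.94, 1.61 and 2.29 FPKM in Th17 cells. Klrb1c, which encodes the receptor NK1.1, was at 0.240, 0.496 and 0.0824 FPKM in Th17-derived Th1, against 0.337, 1.31 and 1.35 FPKM in Th1 and 3.67, 3.06 and 7.19 FPKM in Th17 cells, while Ncr1, another gene of natural killer cells, did not exceed 0.0571 FPKM in any library.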
